A study of Rattus norvegicus with 30 samples.

Results

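The genes described here are the Toll-like receptors Tlr1, Tlr2, Tlr3, Tlr4, Tlr6, Tlr7, Tlr8 and Tlr9 with the co-receptors Cd14 and Ly96, measured in microglia of rats after a stroke. They were taken by gene symbol from the annotation of the array. Of the 10 genes, 8 had a listed probe set, 1 each, and Tlr1 and Tlr8 were not listed. The series named 14506 genes, of which 11675 passed a filter on dim probe sets (a log2 signal above the 30th percentile of the array on at least 3 arrays), and all 8 measured members passed it. None of the 8 lay at or below that percentile on any of the 30 arrays. Microglia, the resident macrophages of the brain, were isolated from male rats whose middle cerebral artery was blocked for a time by a filament under isoflurane and then reopened. The 10 groups of 3 samples each were, at 12 months and again at 3 months of age, the injured (ipsilateral) hemisphere on day 14 and on day 3, the opposite (contralateral) hemisphere on day 14 and on day 3, and sham. By numbers in the sample codes, the 24 stroke samples were both hemispheres of 12 animals. The labels do not say whether the sham samples came from separate animals or from which hemisphere. P-values against sham therefore measure only the spread between samples. The labels call the animals Wistar Kyoto in one field and spontaneously hypertensive rats in another, and every group carries the same conflict. How the cells were sorted, and which sequences the probes match, are points that the labels used here do not give.

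Toll-like receptors are transmembrane sensors that recognise microbial molecules and some molecules of damaged cells. Tlr4 sits on the cell surface, where it needs its partner Ly96 (MD-2) to bind lipopolysaccharide, which Cd14 hands over. Tlr2 works on the surface in pairs with Tlr1 or Tlr6 and senses lipoproteins, while Tlr3, Tlr7, Tlr8 and Tlr9 sense nucleic acids inside endosomes. Most of these receptors signal through the adaptor Myd88 to NF-kB, and Tlr3 and internalised Tlr4 signal through Ticam1 to interferon genes.

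Promoter sequence is shown for the genes of the lipopolysaccharide receptor that moved in opposite directions, Cd14 and Tlr4, and for Tlr2, which shares Cd14 as a co-receptor. The sequences are the 250 bases before the start of each gene in RefSeq's annotation of GRCr8, read 5′ to 3′ on the strand of the gene. Cd14 lies at chr18:28611159-28611408 on the minus strand, Tlr4 at chr5:85160997-85161246 on the plus strand and Tlr2 at chr2:171504558-171504807 on the minus strand. Capitals mark letters that match a searched motif, which is a description and not a binding site.
Cd14 promoter: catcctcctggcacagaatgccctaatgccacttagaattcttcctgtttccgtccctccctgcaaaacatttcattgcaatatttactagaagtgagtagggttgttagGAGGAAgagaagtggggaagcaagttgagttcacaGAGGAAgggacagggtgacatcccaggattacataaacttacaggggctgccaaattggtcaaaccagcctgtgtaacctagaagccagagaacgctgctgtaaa
Tlr4 promoter: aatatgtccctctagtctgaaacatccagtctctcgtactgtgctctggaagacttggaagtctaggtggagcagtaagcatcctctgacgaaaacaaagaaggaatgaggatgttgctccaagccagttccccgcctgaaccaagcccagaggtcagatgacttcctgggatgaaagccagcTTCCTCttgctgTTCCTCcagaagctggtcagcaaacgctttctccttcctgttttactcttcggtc
Tlr2 promoter: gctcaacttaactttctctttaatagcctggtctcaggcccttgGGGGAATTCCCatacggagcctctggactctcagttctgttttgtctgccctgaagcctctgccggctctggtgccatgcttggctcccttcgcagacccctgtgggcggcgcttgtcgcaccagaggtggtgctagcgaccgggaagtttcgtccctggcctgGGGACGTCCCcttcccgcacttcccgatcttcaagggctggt
Matches to the core GAGGAA of the myeloid factor PU.1, searched on both strands, stood at 2 places each in the windows of Cd14 and Tlr4, and 23.3% of 33469 rat promoter windows hold at least 1. The NF-kB motif matched at 2 separate places in the window of Tlr2, with overlapping matches on both strands at each, and 6.33% of the windows hold it. It did not match in the windows of Cd14 and Tlr4. Single matches to GAGGAA also stood in the windows of Tlr3, Tlr6, Tlr7, Tlr8 and Tlr9. The AP-1 motif TGANTCA, which 6.34% of the windows hold, matched in that of Tlr9, and the C/EBP motif TTNNGCAA, which 9.22% hold, matched in those of Tlr7 and Tlr8. The interferon-stimulated response element, which 3.41% hold, matched in none of the 9 windows, and no searched motif stood in that of Tlr1.

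Values are log2 signals per array, and changes are differences of group means with the standard error of a limma model over all 30 arrays. Calls were made below 0.05 after adjustment over the 11675 genes of a comparison. A signal ranks samples for 1 gene and does not compare genes, since probe sets differ. Of 10 microglia markers, which check the labelled cell type, 8 were tested, and their mean signal was 9.88 to 11.01 on the arrays, with none at or below the dim limit on all arrays of a group. Arrays differed in the spread of their signals, with an SD of 1.79 to 1.93 for the 3-month stroke samples and 1.94 to 2.05 for the remaining samples. The sample codes also carry 1 of 4 numbers of unstated meaning that separate 3-month sham, 3-month day 3, 3-month day 14 and the 12-month samples. At 3 months, this number cannot be told apart from the group in comparisons with sham and between days, nor in the comparison of ages in sham, whereas the 2 hemispheres of an animal always share it.

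Cd14 rose in the injured hemisphere at each age and day, and Tlr4 fell beside it. Cd14 is anchored to the outer membrane of monocytes, macrophages and microglia. In 12-month rats on day 14 it read 9.87, 9.08 and 9.22 on the ipsilateral arrays, against 6.46, 6.67 and 6.71 on the contralateral arrays. In 12-month rats on day 3 it read 10.70, 10.30 and 10.63 on the ipsilateral arrays, against 7.54, 7.22 and 7.65 on the contralateral arrays. The hemispheres were far apart and did not overlap on either day. In 3-month rats on day 14 Cd14 read 9.0, 9.61 and 8.74 on the ipsilateral arrays, against 6.49, 6.42 and 6.31 on the contralateral arrays. In 3-month rats on day 3 it read 10.50, 10.34 and 10.38 on the ipsilateral arrays, against 7.15, 7.15 and 8.12 on the contralateral arrays. The third contralateral array of this last group stood above the other two and still lay below every ipsilateral array. Differences between the hemispheres were 2.78 ± 0.21 (12 months, day 14, 6.85-fold, adjusted p = 4.3e-11), 3.08 ± 0.21 (12 months, day 3, 8.44-fold, adjusted p = 4.6e-12), 2.71 ± 0.21 (3 months, day 14, 6.52-fold, adjusted p = 8e-11) and 2.94 ± 0.21 (3 months, day 3, 7.66-fold, adjusted p = 3.8e-11). Within each of the 12 animals Cd14 was higher on the injured side, by 2.26 to 3.41. In bulk samples such as these, a change in the number of cells of a type and a change in RNA per cell cannot be told apart.

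**Figure D1:**
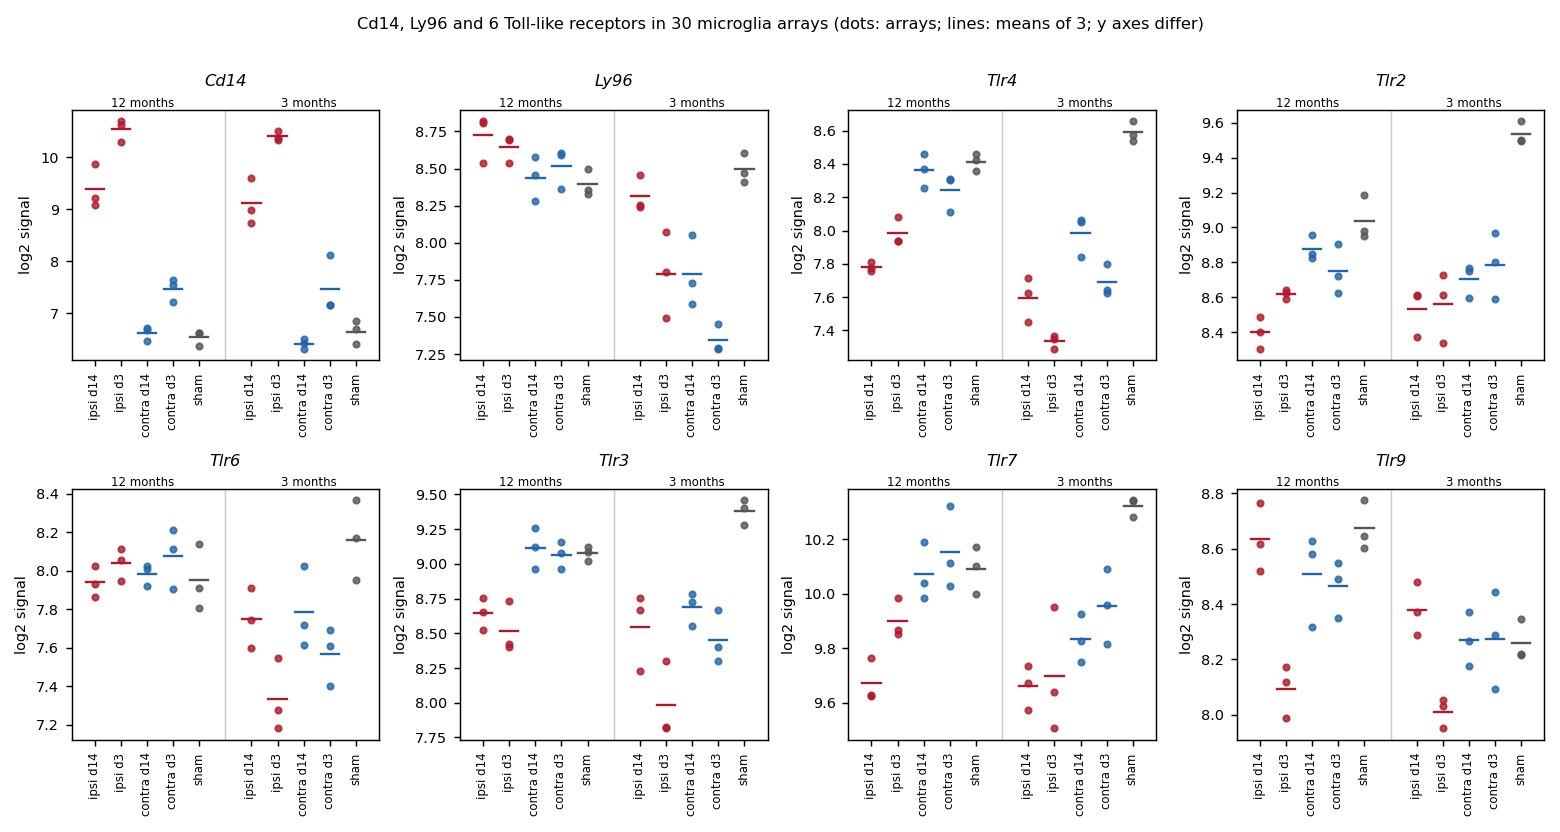
Log2 signal of the 8 measured genes on 30 arrays, by age, hemisphere and day (dots are arrays, lines are means of 3, red is ipsilateral, blue contralateral and grey sham, and each panel has its own y axis). Ipsilateral Cd14 arrays lay at 8.74 to 10.70, above every contralateral and sham array, and Tlr4 was lower on ipsilateral than on contralateral arrays in each of the 4 pairs of groups.

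Ly96, the secreted partner that completes the lipopolysaccharide site of Tlr4, rose between hemispheres at 3 months. On day 14 at 3 months it read 8.45, 8.24 and 8.25 on the ipsilateral arrays, against 7.59, 8.05 and 7.73 on the contralateral arrays. On day 3 at 3 months it read 7.80, 7.49 and 8.07 on the ipsilateral arrays, against 7.45, 7.28 and 7.29 on the contralateral arrays. Neither day showed an overlap, and the changes were 0.53 ± 0.12 on day 14 (adjusted p = 0.0023) and 0.45 ± 0.12 on day 3 (adjusted p = 0.009). The day 3 call was lost without ipsilateral replicate 3 (0.31, adjusted p = 0.1) and in a fit to the compared arrays alone (adjusted p = 0.051). At 12 months the differences were 0.28 ± 0.12 on day 14 (95% interval 0.03 to 0.54) and 0.12 ± 0.12 on day 3 (-0.13 to 0.38), neither called, and the arrays overlapped. In the values as deposited, Ly96 was nonetheless higher on the injured side in 12 of 12 animals, by 0.09 to 0.87. After quantile renormalization the 12-month differences were 0.25 on day 14 (adjusted p = 0.17) and 0.01 on day 3 (adjusted p = 0.96). Those at 3 months were then 0.45 on day 14 (adjusted p = 0.0065) and 0.44 on day 3 (adjusted p = 0.0066). The difference of the Ly96 hemisphere effect between ages, 12 minus 3 months, was not called on day 14 (-0.24 ± 0.18, adjusted p = 0.73) or day 3 (-0.32 ± 0.18, adjusted p = 0.46).

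Tlr4, the receptor itself, fell in the injured hemisphere in each of the 4 comparisons. On day 14 at 12 months it read 7.78, 7.76 and 7.81 on the ipsilateral arrays, against 8.26, 8.46 and 8.37 on the contralateral arrays. On day 3 at 12 months it read 7.94, 8.08 and 7.93 on the ipsilateral arrays, against 8.31, 8.11 and 8.31 on the contralateral arrays. The gap was wide on day 14, and on day 3 the highest ipsilateral array came within 0.03 of its own contralateral partner. On day 14 at 3 months Tlr4 read 7.62, 7.45 and 7.72 on the ipsilateral arrays, against 8.07, 7.84 and 8.05 on the contralateral arrays. On day 3 at 3 months it read 7.35, 7.29 and 7.37 on the ipsilateral arrays, against 7.64, 7.80 and 7.63 on the contralateral arrays. No pair of groups overlapped. The changes were -0.58 ± 0.09 (12 months, day 14, adjusted p = 8.2e-06), -0.26 ± 0.09 (12 months, day 3, adjusted p = 0.022), -0.39 ± 0.09 (3 months, day 14, adjusted p = 0.0012) and -0.36 ± 0.09 (3 months, day 3, adjusted p = 0.0027). Tlr4 was lower on the injured side in 12 of 12 animals, with differences of -0.70 to -0.03. The call at 12 months and day 3 was lost with each array centred on its median (-0.21, adjusted p = 0.078). It was also lost without contralateral replicate 1 or 3 or without ipsilateral replicate 1 or 3 (-0.24 to -0.23, adjusted p 0.082 to 0.087).

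**Figure D2:**
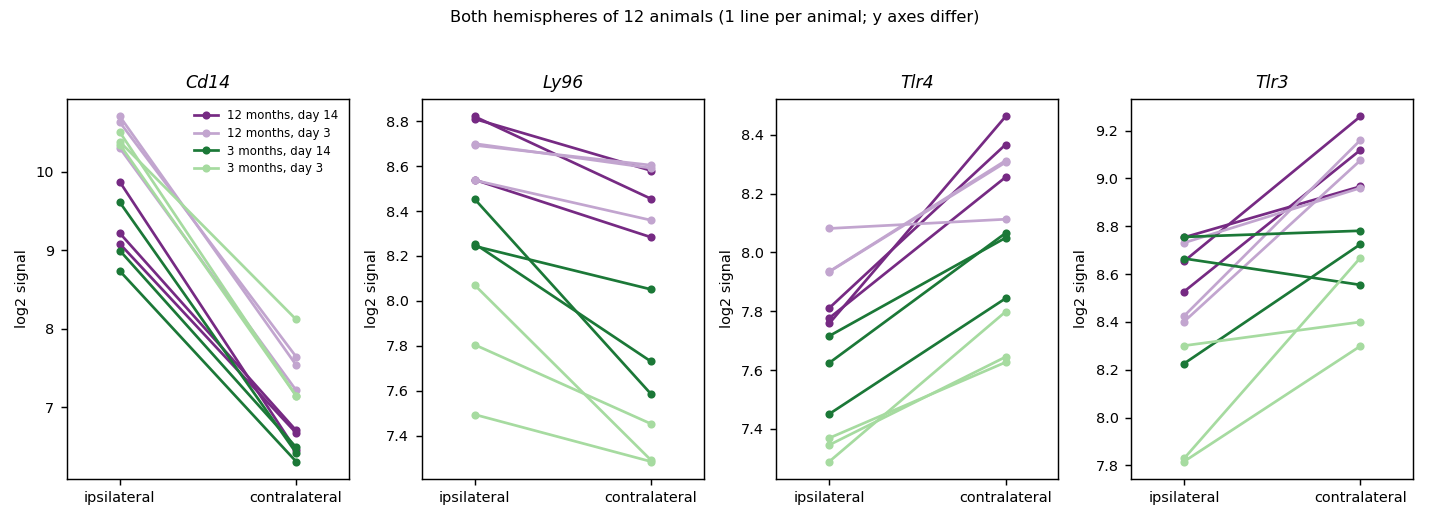
Log2 signal of Cd14, Ly96, Tlr4 and Tlr3 in both hemispheres of the 12 stroke animals, 1 line per animal, coloured by age and day, with a y axis of its own in each panel. Every line falls towards the contralateral side for Cd14 and Ly96 and climbs towards it for Tlr4, and 11 of 12 lines climb for Tlr3.

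Tlr2, the surface receptor for lipoproteins, fell in the injured hemisphere at 12 months and day 14. It read 8.49, 8.30 and 8.40 on those ipsilateral arrays, against 8.85, 8.82 and 8.95 on the contralateral arrays, with no overlap and a change of -0.48 ± 0.10 (adjusted p = 0.0013). The differences at 12 months and day 3 (-0.13 ± 0.10), at 3 months and day 14 (-0.17 ± 0.10) and at 3 months and day 3 (-0.23 ± 0.10, 95% interval -0.44 to -0.01) were not called, and their arrays overlapped. After quantile renormalization the first 2 were called (-0.26 each, adjusted p = 0.041 and 0.042) and the last was not (-0.24, adjusted p = 0.061). It was lower on the injured side in 9 of 12 animals. Tlr6, the partner of Tlr2 for diacylated lipoproteins, was called in no hemisphere comparison. Its differences were -0.05 (95% interval -0.29 to 0.20), -0.04 (-0.29 to 0.21), -0.04 (-0.28 to 0.21) and -0.23 (-0.48 to 0.02) at 12 months on days 14 and 3 and at 3 months on days 14 and 3. The arrays overlapped in each comparison, and the injured side was lower in 8 of 12 animals. Its whole range over the 30 arrays was 7.18 to 8.37.

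Of the endosomal receptors, Tlr3, which senses double-stranded RNA, fell in 3 of the 4 hemisphere comparisons. The 12-month values of day 14 were 8.65, 8.53 and 8.75 on the ipsilateral arrays, against 9.26, 9.12 and 8.97 on the contralateral arrays (-0.47 ± 0.13, adjusted p = 0.011). The 12-month values of day 3 were 8.42, 8.73 and 8.40 on the ipsilateral arrays, against 9.16, 8.96 and 9.08 on the contralateral arrays (-0.55 ± 0.13, adjusted p = 0.0019). The hemispheres did not overlap at 12 months. The 3-month values of day 3 were 7.83, 7.82 and 8.30 on the ipsilateral arrays, against 8.67, 8.30 and 8.40 on the contralateral arrays, which meet at their edges (-0.47 ± 0.13, adjusted p = 0.0088). The 3-month values of day 14 were 8.67, 8.23 and 8.76 on the ipsilateral arrays, against 8.55, 8.72 and 8.78 on the contralateral arrays, an overlap with no call (-0.14 ± 0.13, adjusted p = 0.51). The call at 12 months and day 14 was lost without contralateral replicate 1 (-0.40, adjusted p = 0.07) or ipsilateral replicate 2 (-0.41, adjusted p = 0.059). That at 3 months and day 3 was lost without contralateral replicate 1 (-0.37, adjusted p = 0.079) or ipsilateral replicate 1 or 2 (-0.40 and -0.39, adjusted p = 0.064 each).

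Tlr7, the sensor of single-stranded RNA, was lower on the injured side in 12 of 12 animals (-0.46 to -0.04) and was called at 12 months and day 14. There it read 9.76, 9.63 and 9.63 on the ipsilateral arrays, against 10.19, 9.98 and 10.04 on the contralateral arrays, with no overlap (-0.40 ± 0.10, adjusted p = 0.0048). The other differences of Tlr7 were -0.25 ± 0.10 at 12 months and day 3 (adjusted p = 0.057), -0.17 ± 0.10 at 3 months and day 14 (adjusted p = 0.24) and -0.26 ± 0.10 at 3 months and day 3 (adjusted p = 0.071). Its arrays did not overlap in either of the first 2. That at 12 months and day 3 was called in 7 of 16 alternatives, among them quantile renormalization (-0.37, adjusted p = 0.0015), the animal as a block (adjusted p = 0.044) and leaving out contralateral replicate 2 (-0.32, adjusted p = 0.039). That at 3 months and day 3 was called in 5 of 16, among them quantile renormalization (-0.28, adjusted p = 0.014) and leaving out ipsilateral replicate 3 (-0.38, adjusted p = 0.0062) or contralateral replicate 2 (-0.33, adjusted p = 0.035).

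Tlr9, the sensor of unmethylated CpG DNA, fell in the injured hemisphere at 12 months and day 3 and not on day 14. On day 3 it read 8.12, 8.17 and 7.99 on the ipsilateral arrays, against 8.49, 8.55 and 8.35 on the contralateral arrays, with no overlap (-0.37 ± 0.10, adjusted p = 0.0041). On day 14 it read 8.52, 8.62 and 8.77 on the ipsilateral arrays, against 8.32, 8.63 and 8.58 on the contralateral arrays, which overlapped (0.12 ± 0.10, adjusted p = 0.46). The day 14 effect was therefore 0.50 ± 0.14 above the day 3 effect (adjusted p = 0.028, where 5.34% of all genes were called, 1.75% higher and 3.59% lower). At 3 months Tlr9 read 8.03, 7.95 and 8.05 on the ipsilateral arrays of day 3, against 8.44, 8.09 and 8.29 on the contralateral arrays. That pair did not overlap and was not called (-0.26 ± 0.10, adjusted p = 0.054), although it was with the animal as a block (adjusted p = 0.04). The matching difference between days at 3 months was 0.37 ± 0.14 (adjusted p = 0.14).

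**Figure D3:**
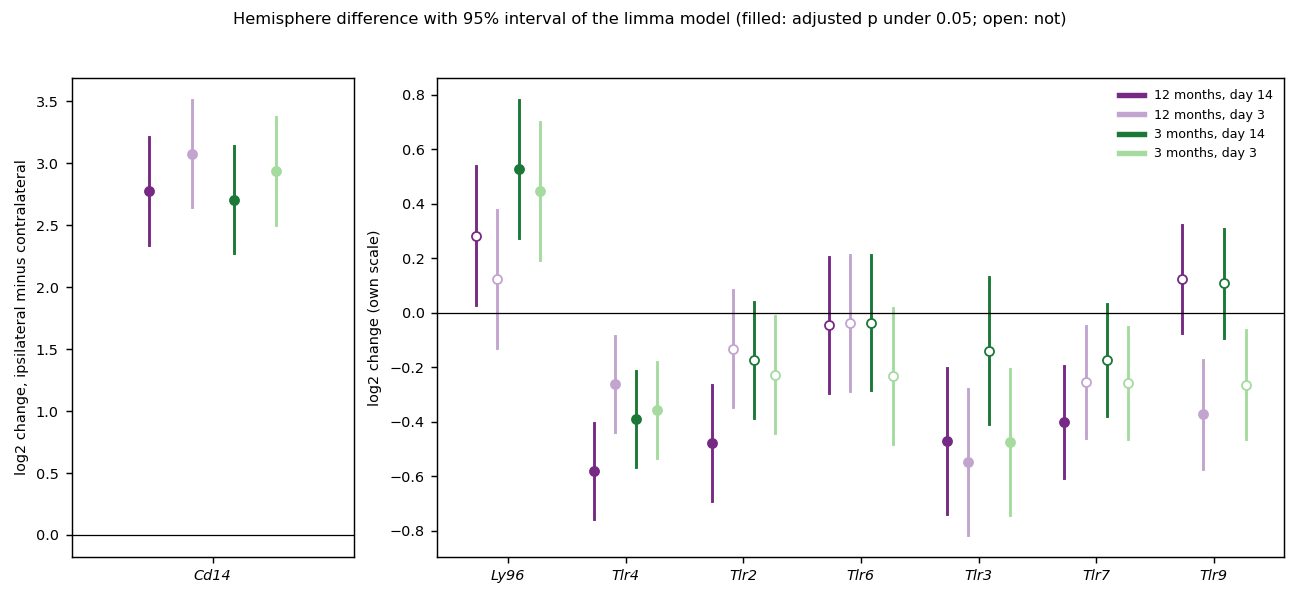
Difference in log2 signal, ipsilateral minus contralateral, for each gene at 12 and 3 months on days 14 and 3, with the 95% interval of the limma model (filled points had an adjusted p under 0.05). Cd14, on its own scale at left, lay at 2.71 to 3.08, Tlr4 lay below 0 in all 4 comparisons, and Tlr9 lay on opposite sides of 0 on days 14 and 3.

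Counted together, 5 of the 8 genes were called between hemispheres at 12 months and day 14 (1 higher, 4 lower), where 16.8% of all genes were called (10.9% higher, 5.94% lower). On day 3 at 12 months the count was 4 (1 higher, 3 lower) against 28.7% of all genes (18.7% higher, 10% lower). On day 14 at 3 months it was 3 (2 higher, 1 lower) against 20.3% (13.2% higher, 7.09% lower), and on day 3 it was 4 (2 higher, 2 lower) against 20.4% (11.5% higher, 8.95% lower). Arrays of the hemispheres did not overlap for 5, 5, 4 and 4 of the genes in the same order, and for 31.4%, 45.9%, 29.8% and 30% of all genes. None of the 6 Toll-like receptors was called higher, and their median change was -0.43, -0.26, -0.16 and -0.26, against -0.01 for all genes each time. The count at 3 months and day 3 was 7 without contralateral replicate 2, where Tlr2, Tlr7 and Tlr9 were called too (-0.33, -0.33 and -0.35, adjusted p = 0.037, 0.035 and 0.014). After quantile renormalization Tlr2 and Tlr7 were also called lower at 3 months and day 14 (-0.26 and -0.24, adjusted p = 0.042 and 0.04), which made the count 5. It was 6 on day 3 at both ages, with Tlr2 and Tlr7 added at 12 months (-0.26 and -0.37, adjusted p = 0.041 and 0.0015) and Tlr7 and Tlr9 added at 3 months (-0.28 each, adjusted p = 0.014 and 0.015).

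Whether the hemisphere effect changed with time or age was tested directly. Between days at 12 months 1 of the 8 genes was called, Tlr9, and its call was lost without contralateral replicate 1 or 2 or ipsilateral replicate 3 of day 3, or without contralateral replicate 1 or ipsilateral replicate 2 or 3 of day 14 (0.40 to 0.51, adjusted p 0.054 to 0.1). Over all genes, 32.7% of the calls of that term were higher as deposited and 43.6% after quantile renormalization. Between days at 3 months none was called by limma, where 3.81% of all genes were (2.57% higher, 1.24% lower, and 1 of the 8 genes had an unadjusted p under 0.05). Without contralateral replicate 2 of day 3 Tlr9 was called there (0.46, adjusted p = 0.048). Between ages none was called on day 14, where 0.00857% of all genes were (1 of the 8 unadjusted), or on day 3, where 1.58% were (1.42% higher, 0.154% lower, and 0 of the 8 unadjusted). For Cd14 the difference of the effect was -0.30 (95% interval -0.91 to 0.31) between days at 12 months and -0.23 (-0.85 to 0.38) at 3 months. It was 0.07 (-0.54 to 0.69) between ages on day 14 and 0.14 (-0.48 to 0.75) on day 3. For Tlr4 the difference between days at 12 months was -0.32 ± 0.12 (adjusted p = 0.14).

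Against sham, with the same sham arrays serving both days and both hemispheres of an age, Cd14 rose and most receptors fell in the injured hemisphere. Cd14 read 6.37, 6.63 and 6.61 on the 12-month sham arrays and 6.70, 6.84 and 6.39 on the 3-month sham arrays. Its ipsilateral change was 2.85 ± 0.21 on day 14 and 4.01 ± 0.21 on day 3 at 12 months (7.23-fold and 16.1-fold), and 2.47 ± 0.21 and 3.77 ± 0.21 at 3 months (5.54-fold and 13.6-fold). None of these groups overlapped with sham. At 12 months 5 of 8 genes were called on day 14 (Cd14 higher, and Tlr2, Tlr3, Tlr4 and Tlr7 lower), where 20% of all genes were (11.9% higher, 8.09% lower). On day 3 the count was also 5 (Cd14 higher, and Tlr2, Tlr3, Tlr4 and Tlr9 lower), where 37.1% were (22.7% higher, 14.3% lower). Arrays did not overlap with sham for 6 genes on day 14 and 7 on day 3, and for 36.3% and 53.3% of all genes. Tlr4 changed by -0.63 ± 0.09 and -0.43 ± 0.09, Tlr2 by -0.64 ± 0.10 and -0.42 ± 0.10 and Tlr3 by -0.43 ± 0.13 and -0.56 ± 0.13 on days 14 and 3. The day 14 call of Tlr3 was lost without sham replicate 1 (-0.41, adjusted p = 0.062) or ipsilateral replicate 2 (-0.37, adjusted p = 0.085). Ly96 was not called (0.33 ± 0.12, adjusted p = 0.06, and 0.25 ± 0.12, adjusted p = 0.12), though its arrays did not overlap with sham, and it was called in 6 of 16 alternatives on day 14 (lowest adjusted p = 0.013, with array weights, at 0.37) and in 2 of 16 on day 3 (lowest adjusted p = 0.03, with array weights, at 0.27). Tlr7 on day 3 was not called as deposited (-0.19 ± 0.10, adjusted p = 0.14) and was after quantile renormalization (-0.38, adjusted p = 0.00074).

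In the contralateral hemisphere at 12 months, 1 call against sham was made over both days. On day 14 none of the 8 genes was called by limma (0 had an unadjusted p under 0.05), where 0.00857% of all genes were, and 0 were free of overlap, as 15.3% of all genes were. On day 3 Cd14 alone was called, at 7.54, 7.22 and 7.65 on the contralateral arrays against 6.37, 6.63 and 6.61 on the sham arrays, with no overlap (0.93 ± 0.21, adjusted p = 0.018, where 1.28% were called, 1.16% higher and 0.128% lower). Arrays were free of overlap for 4 of the 8 genes and 18% of all genes. That call was lost with a trended robust prior (adjusted p = 0.052), without contralateral replicate 1 or 3 (0.90 and 0.84, adjusted p = 0.1 and 0.13) and without sham replicate 1 or 2 (0.85 and 0.98, adjusted p = 0.12 and 0.051). The 6 receptors had a median change of -0.03 on day 14 and -0.09 on day 3.

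At 3 months both hemispheres lay below sham for most of these genes. In the ipsilateral hemisphere 6 of 8 genes were called on day 14 (1 higher, 5 lower), where 34.4% of all genes were (11% higher, 23.4% lower), and 8 of 8 on day 3 (1 higher, 7 lower), where 56.8% were (20.9% higher, 35.9% lower). In the contralateral hemisphere 6 were called on day 14 (0 higher, 6 lower), where 38.7% were (10.4% higher, 28.4% lower), and 7 on day 3 (1 higher, 6 lower), where 51.6% were (14.4% higher, 37.2% lower). Arrays were free of overlap with sham for 6 and 8 of the genes on ipsilateral days 14 and 3 (46.5% and 61.2% of all genes), and for 5 and 7 on the contralateral side (45.5% and 57.7%). Tlr4 read 8.66, 8.57 and 8.54 on the sham arrays, and its changes were -0.99 ± 0.09 and -1.26 ± 0.09 ipsilateral on days 14 and 3, and -0.60 ± 0.09 and -0.90 ± 0.09 contralateral. Tlr3 read 9.46, 9.41 and 9.28 on the sham arrays, and its changes were -0.83 ± 0.13 and -1.40 ± 0.13 ipsilateral, and -0.69 ± 0.13 and -0.93 ± 0.13 contralateral. Neither gene's stroke arrays reached its sham arrays. Tlr2 read 9.61, 9.50 and 9.49 on the sham arrays, and its changes were -1.0 ± 0.10 and -0.98 ± 0.10 ipsilateral, and -0.83 ± 0.10 and -0.75 ± 0.10 contralateral. Ly96 read 8.61, 8.47 and 8.41 on the sham arrays, and its changes were -0.18 ± 0.12 and -0.71 ± 0.12 ipsilateral, and -0.71 ± 0.12 and -1.15 ± 0.12 contralateral. Ly96 thus lay below sham on the contralateral side on both days, and on the injured side was called on day 3 and not on day 14 (adjusted p = 0.28). Contralateral Cd14 was above sham on day 3 (0.83 ± 0.21, adjusted p = 0.0018, and 0.50, adjusted p = 0.038, without the high replicate 3) and not called on day 14 (-0.24 ± 0.21).

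These 3-month comparisons with sham moved with the scaling, and the code number cannot be told apart from the group in them. With the arrays quantile renormalized, the ipsilateral change of Tlr4 was -0.79 on day 14 and -0.89 on day 3, and the contralateral change was -0.32 and -0.51. Tlr2, Tlr3 and Tlr4 stayed called lower in all 4 of these comparisons. On days 14 and 3, Tlr2 was then -0.79 and -0.60 ipsilateral and -0.52 and -0.36 contralateral, and Tlr3 was -0.64 and -1.03 ipsilateral and -0.40 and -0.55 contralateral. Ly96 was 0.02 (adjusted p = 0.93) and -0.34 (adjusted p = 0.017) ipsilateral, and -0.43 (adjusted p = 0.01) and -0.78 (adjusted p = 1.3e-05) contralateral, with the same calls as before. Tlr9 on day 3 in the ipsilateral hemisphere, -0.25 ± 0.10 as deposited (adjusted p = 0.03), turned to 0.11 (adjusted p = 0.28). Its as-deposited call was also lost without sham replicate 3 (-0.21, adjusted p = 0.11) or ipsilateral replicate 2 (-0.22, adjusted p = 0.098). Elsewhere Tlr9 became called higher than sham (0.31 ipsilateral on day 14, and 0.30 and 0.40 contralateral on days 14 and 3). Tlr6 lost its call on day 14 in both hemispheres and on day 3 in the contralateral one, and Tlr7 lost its contralateral call on day 3 (-0.13, adjusted p = 0.21). Tlr6 on day 14 also lost its ipsilateral call without sham replicate 1 (-0.31, adjusted p = 0.079) or ipsilateral replicate 2 (-0.34, adjusted p = 0.064). Its contralateral call was lost without sham replicate 1 (-0.27, adjusted p = 0.12) or contralateral replicate 1 or 2 (-0.34 and -0.29, adjusted p = 0.054 and 0.091). Over all genes, 32.0% of ipsilateral calls on day 14 were higher than sham as deposited and 45% after renormalization. For the contralateral hemisphere these shares were 26.8% and 38.2% on day 14, and 27.8% and 40.4% on day 3.

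Between days, Cd14 was lower on day 14 than on day 3 in both hemispheres at both ages. In the ipsilateral hemisphere it changed by -1.15 ± 0.21 at 12 months (adjusted p = 0.00016) and -1.30 ± 0.21 at 3 months (adjusted p = 3.1e-05), with no overlap at either age. In the contralateral hemisphere the change was -0.86 ± 0.21 at 12 months (adjusted p = 0.039) and -1.06 ± 0.21 at 3 months (adjusted p = 0.0023), also with no overlap. At 12 months 2 of 8 genes were called on the ipsilateral side, where 20.6% of all genes were (6.53% higher, 14.1% lower): Cd14, and Tlr9, which was higher on day 14 (0.54 ± 0.10, adjusted p = 0.00012). On the contralateral side Cd14 was the single call, where 1.06% were (0.137% higher, 0.925% lower). Days did not overlap for 5 genes on the ipsilateral side and 1 on the contralateral side, and for 37.8% and 16.3% of all genes. It was lost with quantile renormalization (-0.80, adjusted p = 0.077), with a trended robust prior (adjusted p = 0.1), without replicate 1 or 3 of day 3 (-0.82 and -0.77, adjusted p = 0.18 and 0.27) and without any replicate of day 14 (-0.90 to -0.78, adjusted p 0.073 to 0.2).

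At 3 months 6 of 8 genes were called between days on the ipsilateral side, where 29.6% of all genes were (22% higher, 7.51% lower). Beside Cd14, 5 were higher on day 14: Tlr3 by 0.57 ± 0.13, Ly96 by 0.53 ± 0.12, Tlr6 by 0.42 ± 0.12, Tlr9 by 0.37 ± 0.10 and Tlr4 by 0.26 ± 0.09. Under quantile renormalization the count was 3, with Tlr3 at 0.39 and Ly96 at 0.36 beside Cd14, and Tlr4, Tlr6 and Tlr9 were not called (0.10, 0.25 and 0.20). Tlr4 was also lost without replicate 2 of day 3 (0.24, adjusted p = 0.076) or replicate 1 or 3 of day 14 (0.25 and 0.20, adjusted p = 0.067 and 0.11). Tlr6 was lost without replicate 1 of day 3 (0.34, adjusted p = 0.058) or replicate 3 of day 14 (0.34, adjusted p = 0.066). On the contralateral side 3 were called (Tlr4 0.30 ± 0.09, Ly96 0.45 ± 0.12, and Cd14), where 10.1% were (8.31% higher, 1.84% lower), and 1 to 2 were called when a replicate was left out, the 1 being Cd14 without replicate 3 of day 3 (-0.74). Days did not overlap for 5 genes on the ipsilateral side and 3 on the contralateral side, and for 40.1% and 21.4% of all genes. Of the calls over all genes at 3 months, 74.6% ipsilateral and 81.9% contralateral were higher on day 14 as deposited, and 59.9% and 60.6% after renormalization. The day and the code number cannot be told apart at 3 months.

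In sham, age was compared at 12 against 3 months, where age and code number also cannot be told apart. Tlr2 read 9.18, 8.98 and 8.95 at 12 months, against 9.61, 9.50 and 9.49 at 3 months (-0.50 ± 0.10, adjusted p = 0.0019). Tlr9 read 8.77, 8.65 and 8.60 at 12 months, against 8.22, 8.22 and 8.34 at 3 months (0.42 ± 0.10, adjusted p = 0.0048). Neither pair overlapped, and these were the 2 calls among the 8 genes, where 13% of all genes were called (7.47% higher, 5.52% lower). Ages were free of overlap for 5 of the 8 genes and 33.8% of all genes. Of all calls, 57.5% were higher at 12 months as deposited and 69.0% after renormalization, and both genes kept their direction and call. Cd14 differed by -0.11 ± 0.21 and Ly96 by -0.10 ± 0.12, with overlapping arrays.

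The order of the 10 groups differed between genes. Cd14 was highest at 12 months and day 3 on the injured side (10.54 ± 0.21, SD, n = 3), with 3 months and day 3 on the same side next (10.41 ± 0.08), and lowest at 3 months and day 14 on the contralateral side (6.41 ± 0.09), a span of 4.14. Of the 9 steps between neighbours in that order, 3 were free of overlap: below the ipsilateral day 3 groups, below the ipsilateral day 14 groups and below the contralateral day 3 groups. Tlr2, Tlr3, Tlr4, Tlr6 and Tlr7 were each highest in 3-month sham, Tlr9 in 12-month sham and Ly96 at 12 months and day 14 on the injured side. Their spans were 0.66 to 1.40, and 0 of the 9 steps for Tlr6 and Tlr7 and at most 4, for Tlr4, were free of overlap. Over the 30 arrays, the genes whose signal followed that of Cd14 most closely were Timp1 (an inhibitor of matrix proteases, Pearson's r = 0.976), Septin9 (a cytoskeletal GTPase, r = 0.972) and Spp1 (osteopontin, r = 0.969). These are descriptions across arrays that share the group structure.

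Markers of monocytes and of border macrophages were called higher on the injured side, as Cd14 was, more often than lower. Neutrophil markers were called higher more often than lower at 3 months and day 3, and few were called in the other comparisons. The plot of marker lists by array shows the levels. Of 10 monocyte and macrophage markers, 5 were higher and 1 lower on the injured side at 12 months and day 14, 9 and 0 at 12 months and day 3, 5 and 1 at 3 months and day 14, and 10 and 0 at 3 months and day 3. Of 7 markers of macrophages at the borders of the brain, 3 were higher and 1 lower, 7 and 0, 3 and 1, and 6 and 0 in the same order. Of 12 neutrophil markers the counts were 0 and 1, 1 and 0, 1 and 3, and 4 and 0. Over all genes, the shares called higher and lower were 10.9% and 5.94%, 18.7% and 10%, 13.2% and 7.09%, and 11.5% and 8.95%. Of the 3 lower at 3 months and day 14, S100a8 and S100a9 were not called without contralateral replicate 3 (adjusted p = 0.3 and 0.23). That array was left out after the data were seen. None of the 7 of 8 listed border markers and 10 of 12 listed monocyte markers that were measured lay at or below the dim limit on all arrays of any group, while neutrophil genes (Cxcr2, and in some groups Mmp8 and Mmp9) lay at or below it on every array of a group in 8 of the 10 groups. At 3 months and day 14 the mean of the border list was 6.11 to 6.29 on ipsilateral arrays, against 5.93 to 5.98 on contralateral arrays, and that of the monocyte list 7.13 to 7.25 against 6.65 to 6.67. Cd14 differed by 2.71 there and by 2.94 on day 3. On day 3 the border list stood at 7.61 to 8.21 against 6.31 to 6.93, and the monocyte list at 7.57 to 8.45 against 6.59 to 6.65. At 12 months and day 14 ipsilateral replicate 1, with the highest Cd14 of its group (9.87), also had its highest border mean (7.18, against 5.93 and 6.27 on the other 2 arrays) and monocyte mean (7.47, against 7.05 and 7.08). Without it the Cd14 difference between hemispheres was 2.54, still called. The contralateral array with the high Cd14 value at 3 months and day 3 also had the highest border and neutrophil means of its group (6.93 and 5.75). Its monocyte mean was not the highest (6.64, against 6.65 and 6.59 on the other 2 arrays). Of 8 microglia markers 7 were lower on the injured side in each of the 4 comparisons, with medians of -0.63, -0.61, -0.46 and -0.79, and Tlr4, Tlr3 and Tlr7 lay lower beside them. Of the T and NK cell, dendritic cell, astrocyte, endothelial, neuron and oligodendrocyte lists, 0 to 2 markers were higher and 0 to 3 lower in each comparison. The part of other cells in the changes of Cd14, Ly96 and the receptors was not tested. Of 5 tested markers of B cells and plasmacytoid dendritic cells, cells known for Tlr7 and Tlr9, 0 were called between hemispheres, and the B cell gene Ms4a1 was at or below the dim limit in all 10 groups.

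**Figure D4:**
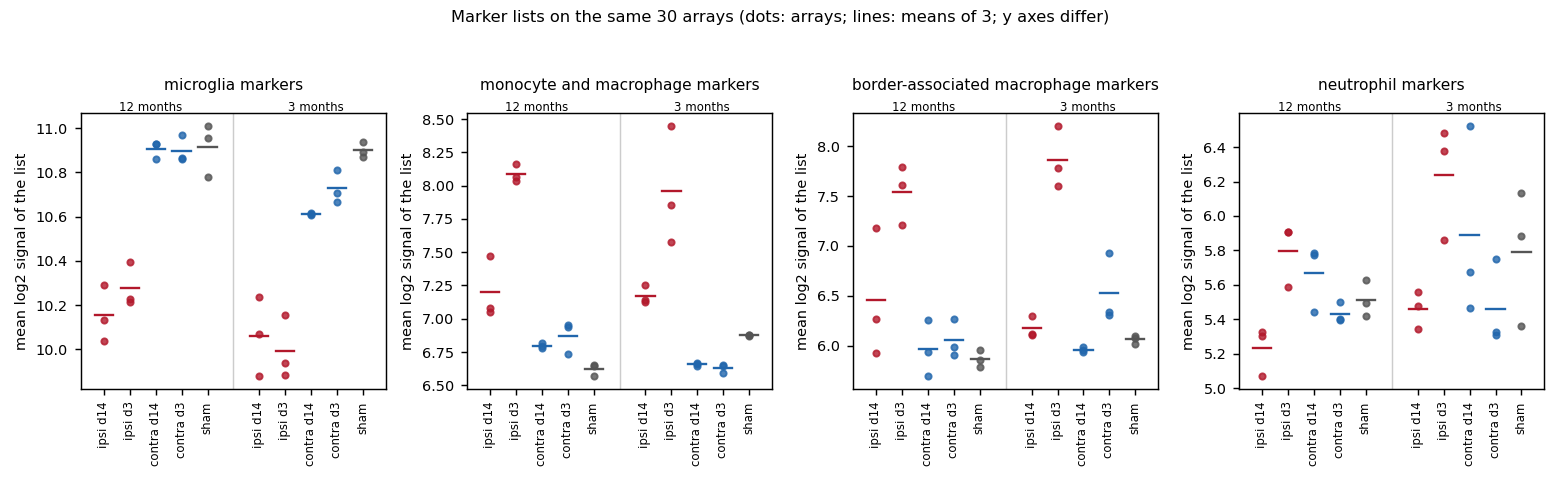
Mean log2 signal of 4 marker lists on the 30 arrays, by age, hemisphere and day (dots are arrays, lines are means of 3, y axes differ). Microglia markers were lower on ipsilateral arrays in every pair of groups, and the border macrophage mean was 7.21 to 8.21 on ipsilateral day 3 arrays and 5.93 to 7.18 on ipsilateral day 14 arrays.

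Of the rest of the pathway, 40 of 56 listed genes were tested. Between hemispheres 4 were higher and 5 lower at 12 months and day 14, 4 and 7 at 12 months and day 3, 7 and 3 at 3 months and day 14, and 7 and 8 at 3 months and day 3. These counts are 22.5%, 27.5%, 25% and 37.5% of the 40, against 16.8%, 28.7%, 20.3% and 20.4% of all genes. Their medians were 0.03, 0.02, 0.08 and 0.02, against -0.01 for all genes. Among transcription factors, Irf7, which drives interferon genes, rose on day 14 by 1.22 ± 0.14 at 12 months and 1.32 ± 0.14 at 3 months, and by 0.49 ± 0.14 on day 3 at 3 months, while at 12 months the day 3 difference was 0.10 ± 0.14. Nfkb2, a subunit of NF-kB, rose at 12 months and day 14 by 0.59 ± 0.12. Fos, a subunit of AP-1, changed on day 3 by -0.63 ± 0.14 at 12 months and -0.68 ± 0.14 at 3 months (both called lower), and its partner Jun changed by -0.54 ± 0.09 and -0.37 ± 0.09. Irak3, a kinase-like brake on Toll-like receptor signalling, rose on day 14 by 0.78 ± 0.15 at 12 months and 0.51 ± 0.15 at 3 months, and on day 3 at 3 months by 0.60 ± 0.15. Against sham at 3 months and day 3, Irf7 changed by -0.04 ipsilateral and -0.53 contralateral, and Irak3 by 0.26 and -0.35. Il1rl1, the receptor for interleukin-33, changed on day 3 by -0.59 ± 0.12 at 12 months and -0.64 ± 0.12 at 3 months. Ikbke, a kinase upstream of interferon factors, rose in all 4 comparisons, by 0.42 ± 0.14 to 0.53 ± 0.14. Its signal was low: at 12 months it averaged 5.16 and 5.06 ipsilateral and 4.64 and 4.57 contralateral on days 14 and 3. The dim limit lay at 4.07 to 4.35 on the arrays. Some of these calls were lost under alternatives run for the named genes after the data were seen. Of 16 alternatives, Ikbke was called in 14 and 15 at 12 months on days 14 and 3, and in 9 and 10 at 3 months (0.24 to 0.65 there). Irak3 was called in 13 on day 14 and 14 on day 3 at 3 months, and Irf7 in 15 at 3 months and day 3. Against sham at 3 months and day 3, Irf7 was called in 0 ipsilateral and 16 contralateral, and Irak3 in 1 and 5.

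Among endogenous ligands of Tlr4 and Tlr2, the calcium-binding proteins S100a8 and S100a9 were called in opposite directions on the days at 3 months. At 3 months and day 3, S100a9 was higher on the injured than on the opposite side by 3.02 ± 0.52 and S100a8 by 2.97 ± 0.51. Against sham, their ipsilateral changes there were 1.67 ± 0.52 and 1.66 ± 0.51, and the contralateral changes were -1.35 ± 0.52 and -1.32 ± 0.51. Each was called, and the arrays overlapped with sham each time. On day 14 the differences between hemispheres were -1.59 ± 0.52 for S100a9 and -1.45 ± 0.51 for S100a8 (adjusted p = 0.029 and 0.045). On day 14 contralateral replicate 3 read 10.40 for S100a9 and 9.74 for S100a8, above 8.65 and 8.38, and 8.0 and 7.83, on the other 2 contralateral arrays, and its neutrophil mean was 6.52 against 5.68 and 5.47. Without that array, left out after the data were seen, the day 14 values were -0.96 (adjusted p = 0.23) for S100a9 and -0.84 (adjusted p = 0.3) for S100a8, with no call. At 12 months and day 14 S100a9 fell by 1.61 ± 0.52 (adjusted p = 0.03), called in 11 of 16 alternatives, and S100a8 differed by -1.35 ± 0.51 (adjusted p = 0.072) with no call. On day 3 at 12 months neither was called (1.26 ± 0.52, adjusted p = 0.069, for S100a9 and 1.22 ± 0.51, adjusted p = 0.078, for S100a8). Both genes also stand on the neutrophil list. The matrix protein Fn1 rose on day 3 by 1.04 ± 0.40 at 12 months and 2.02 ± 0.40 at 3 months, called in 8 and 16 of 16 alternatives, and Bgn (biglycan) rose by 0.65 ± 0.12 at 3 months and day 14. The adaptor Myd88, named after its values were seen, fell by 0.28 at 12 months and day 14 (adjusted p = 0.0084), and 2 of 6 listed adaptors were tested.

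Against sham, the pair of Cd180, a Toll-like receptor homologue without a signalling domain, and its partner Ly86 fell in both hemispheres at 3 months. Cd180 changed by -1.16 ± 0.10 and Ly86 by -1.20 ± 0.11 on the injured side at 3 months and day 3, and Cd180 by -0.92 ± 0.10 on day 14. On the contralateral side at 3 months Cd180 changed by -0.57 (adjusted p = 6.2e-05) on day 14 and -0.63 (adjusted p = 5.3e-06) on day 3, and Ly86 by -0.48 (adjusted p = 0.001) and -0.95 (adjusted p = 6.3e-08). Each stayed called in 16 alternatives, at -0.65 to -0.36 and -0.70 to -0.43 for Cd180. Ly86 ranged from -0.56 to -0.30 and from -1.02 to -0.72. At 3 months, 23.4% and 35.9% of all genes were called lower than sham ipsilateral on days 14 and 3. On the contralateral side these shares were 28.4% and 37.2%. The code number cannot be told apart from the group in these 3-month comparisons. At 12 months and day 14 Cd180 changed by -0.69 ± 0.10 and Ly86 by -0.39 on the injured side, called in 16 and 14 of 16 alternatives. On day 3 at 12 months Cd180 changed by -0.27 and Ly86 by -0.06 on that side, called in 11 and 0. On the contralateral side neither gene was called at 12 months on either day. Of the 40 genes, 5 were higher and 2 lower than sham on the injured side at 12 months and day 14, 3 and 8 on day 3, and at 3 months 4 and 13 on day 14 and 6 and 20 on day 3. These counts are 17.5%, 27.5%, 42.5% and 65% of the 40, against 20%, 37.1%, 34.4% and 56.8% of all genes. In the contralateral hemisphere at 12 months 0 were called on either day, and at 3 months 1 was higher and 17 lower on day 14 and 1 and 19 on day 3 (45% and 50%, against 38.7% and 51.6% of all genes).

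**Figure D5:**
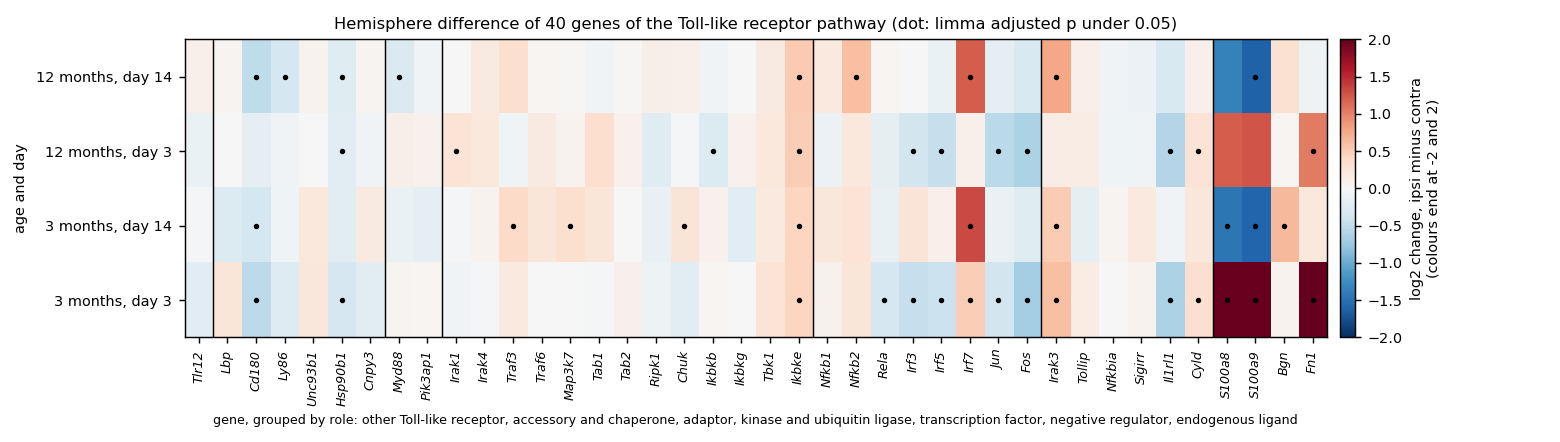
Log2 difference, ipsilateral minus contralateral, of the 40 tested pathway genes (columns, grouped by role) at each age and day (rows), with dots where the limma adjusted p was under 0.05. Ikbke carries a dot in all 4 rows, Irf7 stands at 1.22 and 1.32 on day 14, and S100a8 and S100a9 lie below 0 on day 14 and above 0 on day 3.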

How the data were processed

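Microglial RNA of 30 samples in 10 groups of 3 was measured on Affymetrix rat gene arrays. The deposited values were log2 signals of 29214 probe sets, which the authors computed by RMA in the Affymetrix Expression Console, per the submitters' processing notes (no version given). The genome build and the run in which arrays were summarised are not given in the sources used here. The values, 2.18 to 13.68, were used without further scaling, and no 2 arrays were identical. Probe sets with 1 gene symbol (15310) were named through the platform's annotation, updated with RefSeq genes of GRCr8. A gene was tested on its probe set with the highest mean, kept if above the 30th percentile of the array on at least 3 arrays.

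Group means were fitted with limma 3.58.1 (R 4.3.3) over all 30 arrays (20 residual and 8.8 prior degrees of freedom), and Benjamini-Hochberg adjustment ran over 11675 genes in each of 21 comparisons. The number of arrays limits the precision. The fit was tested on simulated data. Replicate numbers in the sample codes pair the hemispheres of 12 animals, whose deviations from group means correlated at -0.08 to 0.21, and the animal as a block was an alternative. Other alternatives were fits to fewer arrays, quantile renormalization, median centring, dim filters, averaged probe sets, trended robust priors, array weights and leaving out each replicate. Named were the members, up to 5 called pathway genes per comparison with the largest change, and 3 genes most like any member spanning at least 2 log2 units. Members and lists were chosen with earlier results of these data known. Promoter windows came from RefSeq's GRCr8 annotation, which held 9 of the 10 genes (not Ly96), and motifs were searched on both strands.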

Additional observations from a re-analysis of the deposited data

Results flagged for a closer look

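The hemisphere effect of Tlr9 at 12 months was called different between the days. The call was lost in a fit to the compared arrays alone, with each array centred on its median, and without some single replicates. Ipsilateral minus contralateral was 0.12 on day 14 and -0.37 on day 3, and the difference between the days was 0.50 ± 0.14 in a limma interaction term (adjusted p = 0.028). After quantile renormalization that term was 0.56 (adjusted p = 0.0049). At 3 months the same term was 0.37 ± 0.14 (adjusted p = 0.14). With 1 gene at 12 months in 8 past the threshold, it stands beside 5.34% of all genes.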

How the results depend on the processing

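Over 168 member results and 2856 alternative values, 2649 kept their direction and their side of the threshold. With the direction kept, 70 lost a call and 40 gained one, and 96 uncalled values changed sign. For 1 value the call was lost and the sign changed, namely Tlr9 ipsilateral against sham at 3 months and day 3 (0.11, adjusted p = 0.28, after quantile renormalization). Cd14 was called higher between hemispheres in all 16 alternatives of each of the 4 comparisons. With the animal as a replicate block (correlation 0.072 within pairs), 2 calls were gained, Tlr9 at 3 months and day 3 (adjusted p = 0.04) and Tlr7 at 12 months and day 3 (adjusted p = 0.044), both between hemispheres, and the block changed no other call. Counts of called members moved as follows. Quantile renormalization gave 5 and 6 between hemispheres at 3 months on days 14 and 3, 5 and 6 at 12 months, 3 and 1 between days at 3 months on the ipsilateral and contralateral side, and 0 on the contralateral side at 12 months. Fits to the compared arrays or to arrays of 1 age gave 1 between days on the contralateral side at 3 months, and the first gave 0 for the hemisphere effect between days at 12 months, as did median centring. A trended robust prior gave 0 for contralateral against sham at 12 months and day 3 and 0 between days on the contralateral side at 12 months. Array weights gave 4 for age in sham. Leaving out 1 replicate at a time gave 3 to 7 between hemispheres at 3 months and day 3, 0 to 1 for contralateral against sham at 12 months and day 3, 1 to 2 and 0 to 1 between days on the contralateral side at 3 and 12 months, and 0 to 1 for the hemisphere effect between days at both ages. The cause of these moves was not tested. Among the named pathway genes, whose alternatives were added after the data were seen, 1 uncalled value changed sign and was called, Myd88 contralateral against sham at 3 months and day 3 (-0.02, adjusted p = 0.85, as deposited and 0.36, adjusted p = 0.00023, after quantile renormalization). Signals of all 8 members lay above the dim limit on all arrays.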
